A study of Homo sapiens with 6 samples.

Results

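This report is about the genes of the SR splicing factors and of the hnRNP proteins that carry an SRSF or HNRNP symbol, in cells of the breast cancer line MDA-MB-231 that did or did not bind FABP4. Members were all genes whose symbol was SRSF followed by a number, or HNRNP followed by letters or numbers, leaving out symbols that end in P and a number, which name pseudogenes. The rule took 37 of the 58051 genes, 12 SR genes and 25 hnRNP genes, and used no measured value. This established human line grows with a mesenchymal-like shape and is labelled wild type here. Cells were stained with FITC-labelled recombinant human FABP4, a carrier of fatty acids, and sorted by flow cytometry into binding and non-binding cells. Each group had 3 libraries of ribosomal RNA-depleted total RNA, and both groups had been through the stain and the sort. Values were TPM, a gene's share of its library's transcripts after correction for length, scaled so that each library sums to 1000000. Sequencing depth is unknown, so no counting interval can be given. The labels do not say that libraries came from separate cultures, so each p-value reflects no more than the spread among these 6 libraries, and that spread may be technical.

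SR proteins bind exons through RNA-recognition motifs and recruit the spliceosome through a tail rich in arginine and serine. The hnRNP proteins coat nascent transcripts through RNA-recognition, KH or other domains, and many of them silence exons or splice sites to which SR proteins would otherwise draw the spliceosome. Both groups also act in RNA export, stability and translation. Many of their genes limit their own level by splicing in an exon that sends the transcript to decay, a choice that gene-level TPM cannot show.

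Most hnRNP genes were lower in the binding cells, and the SR genes were mixed. Of 22 tested hnRNP genes, 14 were lower and none higher, and of 11 tested SR genes, 2 were lower (SRSF1 and SRSF10) and 1 higher (SRSF8). Tested genes had at least 1 TPM in at least 3 libraries, and a call was an adjusted p of at most 0.05 (limma on log2(TPM + 1), Benjamini-Hochberg over 15574 genes). Among all tested genes, 7.12% were lower and 19.6% higher. Among protein-coding genes averaging at least 100 TPM, a level that most members reach, 20.2% were lower and 29.7% higher. The median log2 change, binding minus non-binding, was -0.58 over the hnRNP genes, -0.18 over the SR genes, 0.36 over all tested genes and 0.04 over the abundant protein-coding genes. In 21 of 33 tested members all 3 binding libraries lay below all 3 non-binding libraries, against 13.6% of all tested genes and 35.5% of the abundant protein-coding genes. Just 1 member, SRSF8, had every binding library above every non-binding library, against 38.6% of all tested genes and 40.5% of the abundant ones. The log2 change was under 0 in 26 members, against 31.9% of all tested genes and 48.1% of the abundant ones. At an unadjusted p under 0.05 there were 15 hnRNP genes with a change under 0 and none with a change above 0. The shares at that threshold were 11.7% under and 33.0% above 0 for all tested genes, and 30.5% and 37.2% for the abundant ones. The other 4 members did not pass the filter: SRSF12 reached at most 0.879 TPM, HNRNPCL2 reached 1.04 TPM in 1 library, and HNRNPCL3 and HNRNPCL4 were listed at 0 in all 6.

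The background itself turned with the scaling. After all libraries were shifted to 1 common median, 12.1% of all tested genes were lower and 6.18% higher, and the median log2 change over them was 0.04. On that scale 15 hnRNP and 5 SR genes were lower and none higher, since SRSF8 did not pass there. Under quantile normalization 8.0% of all tested genes were lower and 7.69% higher, with 10 hnRNP and 3 SR genes lower and no member higher. Genes higher outnumbered genes lower in the table as deposited but not on these scales, whereas more members were lower than higher on each.

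TPM summed over the hnRNP genes came to 9402, 11502 and 11538 in binding replicates 1, 2 and 3 and 16711, 15673 and 17074 in non-binding replicates 1, 2 and 3. The binding libraries were all below the non-binding libraries, and their mean was 34.4% lower. For the SR genes the sums were 2089, 3105 and 3053 in binding and 4593, 3536 and 4553 in non-binding libraries, a mean 34.97% lower. SRSF1, SRSF2 and SRSF5 made up most of the SR sum. Binding replicate 1 was the lowest of the 6 libraries in 21 of 33 tested members, and non-binding replicate 2 the lowest of its group in 20. In bulk samples, fewer cells of a type and less RNA per cell cannot be told apart.

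The calls depended on single non-binding libraries. Without non-binding replicate 3 none of the 33 members passed, without non-binding replicate 2 only HNRNPA2B1 did, and without non-binding replicate 1, 8 members passed. The calls lost without replicate 1 were those of HNRNPA1L2, HNRNPAB, HNRNPDL, HNRNPF, HNRNPH2, HNRNPK, HNRNPLL, HNRNPU and SRSF10. Calls over all genes shrank in the same fits, to 0.0385% lower and 0.372% higher without replicate 3, 0.514% and 1.8% without replicate 2, and 3.28% and 9.16% without replicate 1. Without non-binding replicate 3, the Benjamini-Hochberg adjusted p from limma of the 17 called members ran from 0.0542 to 0.122. Without binding replicate 1, 2 or 3, 17, 13 and 13 of the 33 members passed. Among all genes 5.7%, 4.94% and 4.1% were then lower and 12.7%, 12.6% and 9.98% higher. The sign of the 17 called members was the same in each of the 6 fits with 1 library left out. That was fixed in advance, because the groups overlapped in none of these members, which had been called on all 6 libraries. Other differences ran between the same groups. Transcripts of the mitochondrial genome took 9.99% to 11.2% of TPM in binding and 2.98% to 3.38% in non-binding libraries. With TPM rescaled without them, 12 hnRNP genes and SRSF1 were lower and SRSF8 higher, against 5.16% lower and 28.4% higher among all genes. Of 14 epidermal markers 9 were lower and none higher, and their summed TPM ran from 1519.7 to 2754 in binding and from 3471 to 4985 in non-binding libraries, with none at 0 throughout. Their part in the results on splicing factors was not tested. Of 12 markers of mesenchymal-like breast lines, such as VIM and CD44, all were tested, 6 were higher and none lower. They summed to 2656 to 2851 TPM in binding and 2119.7 to 2222 TPM in non-binding libraries. Of 12 luminal markers 5 of 10 tested were higher and 1 lower, with sums of 1121 to 1545 against 613 to 639.6 TPM and ESR1 at 0 throughout. Of 10 leukocyte markers 6 were tested and none passed, with sums of 28.4 to 52.4 against 38.3 to 127 TPM and MS4A1 at 0 throughout. Of 10 fibroblast markers 7 were tested and 1 was higher, with sums of 28.4 to 65.98 against 34.95 to 63.6 TPM.

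**Figure D1:**
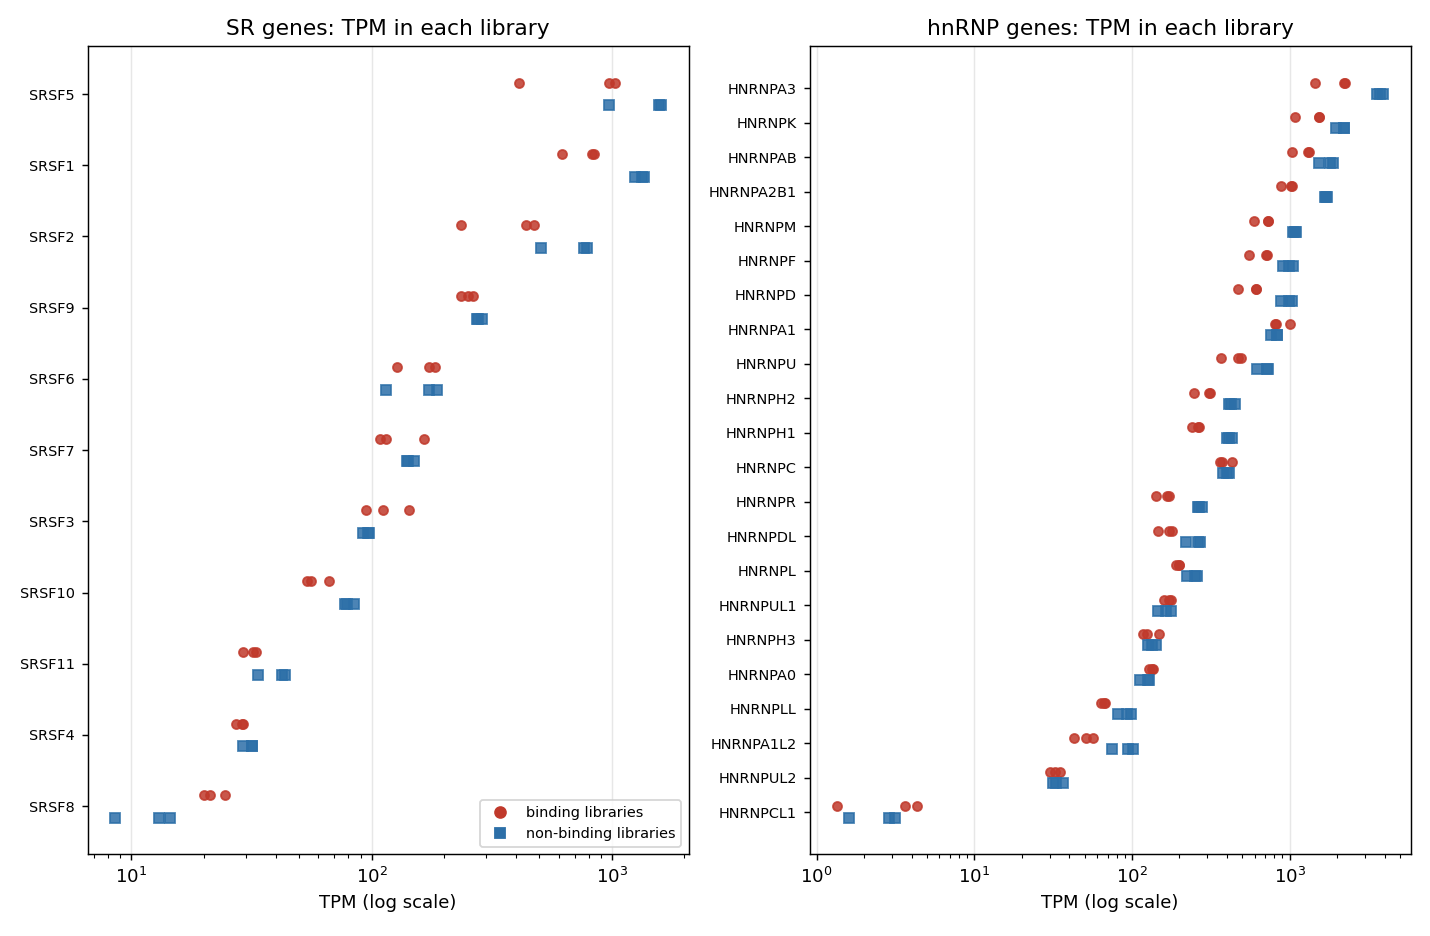
TPM on a log scale (x axis) of each tested SR gene (left panel) and hnRNP gene (right panel), with 1 point per library, circles for the 3 binding and squares for the 3 non-binding libraries, ordered by the non-binding mean. For SRSF1, HNRNPA3, HNRNPA2B1 and 18 other members all circles lie left of all squares, and for SRSF8 all lie right.

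SRSF1, SRSF4, SRSF5, SRSF6 and SRSF9 are the SR proteins with a pair of RNA-recognition motifs, and 1 of these 5 genes, SRSF1, was lower. SRSF1 (chromosome 17, 58003360 to 58007346, minus strand, hg38) encodes the founding SR protein, first known as ASF/SF2 and an oncogene in breast models. It stood at 622, 825 and 842 TPM in binding replicates 1, 2 and 3 and 1367, 1253 and 1336 TPM in non-binding replicates 1, 2 and 3. The groups did not overlap, and the binding mean was 42.1% lower, a log2 change of -0.80 (SE 0.15; Benjamini-Hochberg adjusted p from limma = 0.0153). Relative to the median of all tested genes the SRSF1 change was -1.16. SRSF5, a factor also induced by insulin signalling, had values of 409.9, 1031 and 970.3 TPM in binding replicates 1, 2 and 3 and 1566, 969.6 and 1605 TPM in non-binding replicates 1, 2 and 3. Binding replicate 1 and non-binding replicate 2 were each far below the others of their group, the groups overlapped, and the change did not pass (log2 change -0.86, SE 0.36; Benjamini-Hochberg adjusted p from limma = 0.103). SRSF9 averaged 251 ± 15.3 against 279 ± 7.34 TPM and SRSF4 28.4 ± 0.973 against 30.9 ± 1.44 TPM (SD, n = 3 each). Neither passed (Benjamini-Hochberg adjusted p from limma = 0.313 and 0.521), although in both the binding libraries lay below the non-binding ones. SRSF6, a regulator of wound healing and differentiation in skin, averaged 161 ± 29.5 against 159 ± 38.2 TPM and had its lowest value, 115 TPM, in non-binding replicate 2 (Benjamini-Hochberg adjusted p from limma = 0.898).

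Among SR proteins with a single RNA-recognition motif, 1 gene was lower and 1 higher of 6 tested. SRSF2 (chromosome 17, 76734115 to 76737374, minus strand), the nuclear speckle protein SC35, stood at 236, 474 and 441 TPM in binding replicates 1, 2 and 3 and 790.4, 508 and 766 TPM in non-binding replicates 1, 2 and 3. The groups did not overlap, but the binding values spread widely and the change narrowly missed the threshold, with a log2 change of -0.88 (SE 0.29; Benjamini-Hochberg adjusted p from limma = 0.0528). It passed with the stricter filter of 5 TPM (Benjamini-Hochberg adjusted p from limma = 0.0365) and after shifting all libraries to 1 common median (Benjamini-Hochberg adjusted p from limma = 0.0469), and over all alternatives its Benjamini-Hochberg adjusted p from limma ranged from 0.0365 to 0.14. SRSF2 overlaps MFSD11 on the opposite strand, and without knowledge of strand reads of the pair cannot be told apart. SRSF3 (chromosome 6, 36594353 to 36605600, plus strand), the smallest SR protein, had values of 143, 94.6 and 111 TPM in binding replicates 1, 2 and 3 and 97.2, 92.1 and 96.2 TPM in non-binding replicates 1, 2 and 3. They overlapped, and the log2 change of 0.27 did not pass (Benjamini-Hochberg adjusted p from limma = 0.242) and turned to -0.05 with the common median. SRSF7, which carries a zinc knuckle beside its RNA-recognition motif, averaged 129 ± 30.9 against 144 ± 5.14 TPM (SD, n = 3 each), with its highest value in binding replicate 1 (165 TPM). Without that library the change of SRSF7 was -0.36 and passed (Benjamini-Hochberg adjusted p from limma = 0.0335), against -0.18 and an adjusted p of 0.444 with all libraries. It also passed with the common median, and over all alternatives its Benjamini-Hochberg adjusted p from limma ranged from 0.0335 to 0.81.

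SRSF10 (chromosome 1, 23964804 to 23980927, minus strand), a splicing repressor that is switched on by dephosphorylation in heat shock and mitosis, had values of 66.6, 53.97 and 55.97 TPM in binding replicates 1, 2 and 3 and 79.1, 84.8 and 77.7 TPM in non-binding replicates 1, 2 and 3. All binding values lay below all non-binding values, with a log2 change of -0.45 (SE 0.14; Benjamini-Hochberg adjusted p from limma = 0.0446). The call of SRSF10 was lost without non-binding replicate 1, 2 or 3, without binding replicate 2 or 3, without a filter, without an intensity trend and with TPM rescaled without mitochondrial transcripts. SRSF8 (chromosome 11, 95067197 to 95071224, plus strand), a retrogene related to SRSF2, was the single member that was higher. It stood at 24.5, 21.3 and 19.99 TPM in binding replicates 1, 2 and 3 and 14.5, 13.1 and 8.55 TPM in non-binding replicates 1, 2 and 3. Its groups did not overlap and its binding mean was 1.82 times the non-binding mean, a log2 change of 0.84 (SE 0.22; Benjamini-Hochberg adjusted p from limma = 0.0306). The SRSF8 call was lost with the common median (log2 change 0.52; Benjamini-Hochberg adjusted p from limma = 0.112) and with quantile normalization (log2 change 0.51; Benjamini-Hochberg adjusted p from limma = 0.122). It was also lost without a filter and without any 1 of binding replicates 1, 2 and 3 or non-binding replicates 2 and 3, and over all alternatives its Benjamini-Hochberg adjusted p from limma ranged from 0.0179 to 0.122. SRSF11, a protein of early spliceosome assembly, averaged 31.4 ± 2.07 against 39.9 ± 5.43 TPM (SD, n = 3 each) and did not pass (Benjamini-Hochberg adjusted p from limma = 0.141), though it passed as lower under the common median and under quantile normalization.

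The A/B hnRNPs, which carry paired RNA-recognition motifs and form part of the hnRNP core particle, included HNRNPA3, with the largest log2 fall of any member: 6 of 8 genes were lower and none higher. HNRNPA2B1 (chromosome 7, 26173057 to 26201529, minus strand) encodes a reader of splice sites and of sorting signals in transported RNAs. It stood at 878, 1024 and 1038 TPM in binding replicates 1, 2 and 3 and 1665, 1734 and 1691 TPM in non-binding replicates 1, 2 and 3. The binding values were tightly grouped below the non-binding values, 42.2% lower in the mean, with a log2 change of -0.80 (SE 0.12; Benjamini-Hochberg adjusted p from limma = 0.0121). It had the smallest p of all members, and its genomic span overlaps CBX3 and NFE2L3 on the opposite strand. HNRNPA3 (chromosome 2, 177212563 to 177223958, plus strand), a related shuttling protein, had the highest TPM of the members, at 1449, 2199 and 2250.1 TPM in binding replicates 1, 2 and 3 and 3744, 3602 and 3919 TPM in non-binding replicates 1, 2 and 3. It was 47.6% lower in the mean without overlap of the groups, a log2 change of -0.96 (SE 0.18; Benjamini-Hochberg adjusted p from limma = 0.0158).

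HNRNPD (chromosome 4, 82352498 to 82374503, minus strand), known as AUF1 and a binder of AU-rich elements in short-lived transcripts, stood at 472, 609 and 608 TPM in binding replicates 1, 2 and 3 and 991, 877 and 1027 TPM in non-binding replicates 1, 2 and 3. The groups did not overlap, with a log2 change of -0.78 (SE 0.14; Benjamini-Hochberg adjusted p from limma = 0.0153). HNRNPDL, its close paralog, averaged 165 ± 17.6 against 250.4 ± 27.4 TPM and HNRNPAB, a related binder of single-stranded nucleic acids, 1227 ± 162 against 1742 ± 177 TPM (SD, n = 3 each). Both were lower, with log2 changes of -0.60 and -0.51 (Benjamini-Hochberg adjusted p from limma = 0.0249 and 0.0378). The HNRNPAB call was lost without a filter, with quantile normalization, without mitochondrial transcripts, without an intensity trend and without any 1 library other than binding replicate 1, and over all alternatives its Benjamini-Hochberg adjusted p from limma ranged from 0.0249 to 0.131. The HNRNPDL call was lost without an intensity trend and without any 1 non-binding library. HNRNPA1L2 (chromosome 13, 52642425 to 52643796, plus strand), a retrocopy of HNRNPA1 without introns, had 42.7, 56.6 and 51.00 TPM in binding replicates 1, 2 and 3 and 102, 94.7 and 74.5 TPM in non-binding replicates 1, 2 and 3. It was lower without overlap, a log2 change of -0.84 (SE 0.17; Benjamini-Hochberg adjusted p from limma = 0.0192), and its reads are hard to part from those of HNRNPA1. HNRNPA0, which acts in the stress response through cytokine transcripts, averaged 133 ± 4.13 against 122 ± 8.93 TPM (SD, n = 3 each) and did not pass (Benjamini-Hochberg adjusted p from limma = 0.448). HNRNPA1 is described with its copies.

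HNRNPK, HNRNPL, HNRNPLL, HNRNPM and HNRNPR had every binding library below every non-binding library, and 4 of the 5 were lower. HNRNPK (chromosome 9, 83968083 to 83980616, minus strand), a poly(C)-binding protein with KH domains, stood at 1078, 1533 and 1531 TPM in binding replicates 1, 2 and 3 and 2208, 1977 and 2195 TPM in non-binding replicates 1, 2 and 3. Binding replicate 1 was the lowest, and the mean was 35.1% lower, a log2 change of -0.64 (SE 0.16; Benjamini-Hochberg adjusted p from limma = 0.0286). The HNRNPK call was lost without a filter, with quantile normalization, without an intensity trend and without any 1 non-binding library, and over all alternatives its Benjamini-Hochberg adjusted p from limma ranged from 0.0149 to 0.0881. HNRNPM (chromosome 19, 8444767 to 8489114, plus strand), which guides a mesenchymal splicing programme in breast cancer cells, had values of 591, 727 and 724 TPM in binding replicates 1, 2 and 3 and 1079, 1105 and 1046 TPM in non-binding replicates 1, 2 and 3. The gap between the groups was larger than the spread within either, with a log2 change of -0.67 (SE 0.13; Benjamini-Hochberg adjusted p from limma = 0.0158). HNRNPR (chromosome 1, 23303771 to 23344336, minus strand), a factor in transport of RNA in neurites, stood at 142, 172 and 167 TPM in binding replicates 1, 2 and 3 and 267, 262 and 277 TPM in non-binding replicates 1, 2 and 3. It was 40.3% lower in the mean, a log2 change of -0.75 (SE 0.12; Benjamini-Hochberg adjusted p from limma = 0.0136). HNRNPLL, known for CD45 splicing in lymphocytes, averaged 65.8 ± 1.72 against 91.00 ± 9.03 TPM (SD, n = 3 each) and was lower (Benjamini-Hochberg adjusted p from limma = 0.0383). That call was lost without a filter, without mitochondrial transcripts, without an intensity trend and without any 1 library other than binding replicate 1. HNRNPL, a binder of CA repeats, averaged 196 ± 4.49 against 243 ± 18.7 TPM (SD, n = 3 each) and did not pass (Benjamini-Hochberg adjusted p from limma = 0.0787). It passed as lower with the common median alone, at a log2 change of -0.63, and over all alternatives its Benjamini-Hochberg adjusted p from limma ranged from 0.0209 to 0.235.

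Of the F/H hnRNPs, which bind runs of G, 3 of 4 were lower. HNRNPH1 (chromosome 5, 179614178 to 179634784, minus strand) had 239, 262 and 267 TPM in binding replicates 1, 2 and 3 and 403, 429 and 409 TPM in non-binding replicates 1, 2 and 3. The spread within each group was small beside the gap, with a log2 change of -0.69 (SE 0.11; Benjamini-Hochberg adjusted p from limma = 0.0135). HNRNPF averaged 658 ± 92.2 against 984 ± 75.2 TPM and HNRNPH2 289 ± 36.8 against 429 ± 21.2 TPM (SD, n = 3 each), with log2 changes of -0.59 and -0.58 (Benjamini-Hochberg adjusted p from limma = 0.0258 and 0.0237). The call of HNRNPH2 was lost without an intensity trend and without any 1 non-binding library. HNRNPH3, the family's shorter member, averaged 130.4 ± 16.6 against 134 ± 7.76 TPM (SD, n = 3 each) with overlapping groups (Benjamini-Hochberg adjusted p from limma = 0.793). Among the U-type genes, HNRNPU (chromosome 1, 244840638 to 244864560, minus strand), the scaffold attachment factor that ties RNA to chromatin, stood at 366, 472 and 490.3 TPM in binding replicates 1, 2 and 3 and 719.5, 625 and 729 TPM in non-binding replicates 1, 2 and 3. Its groups did not overlap, with a log2 change of -0.65 (SE 0.15; Benjamini-Hochberg adjusted p from limma = 0.023). The calls of HNRNPU and HNRNPF were each lost without a filter, with quantile normalization, without an intensity trend and without any 1 non-binding library. HNRNPUL1 and HNRNPUL2, which act in the DNA damage response, averaged 169 ± 9.06 against 163 ± 15.7 TPM and 32.6 ± 2.56 against 33.8 ± 2.49 TPM (SD, n = 3 each), and neither passed (Benjamini-Hochberg adjusted p from limma = 0.74 and 0.795). Within these groups HNRNPH1 and HNRNPU lay 38.1% and 35.9% below the non-binding mean, and HNRNPH3 and HNRNPUL2 lay 2.98% and 3.58% below it. The differences between members were not tested.

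**Figure D2:**
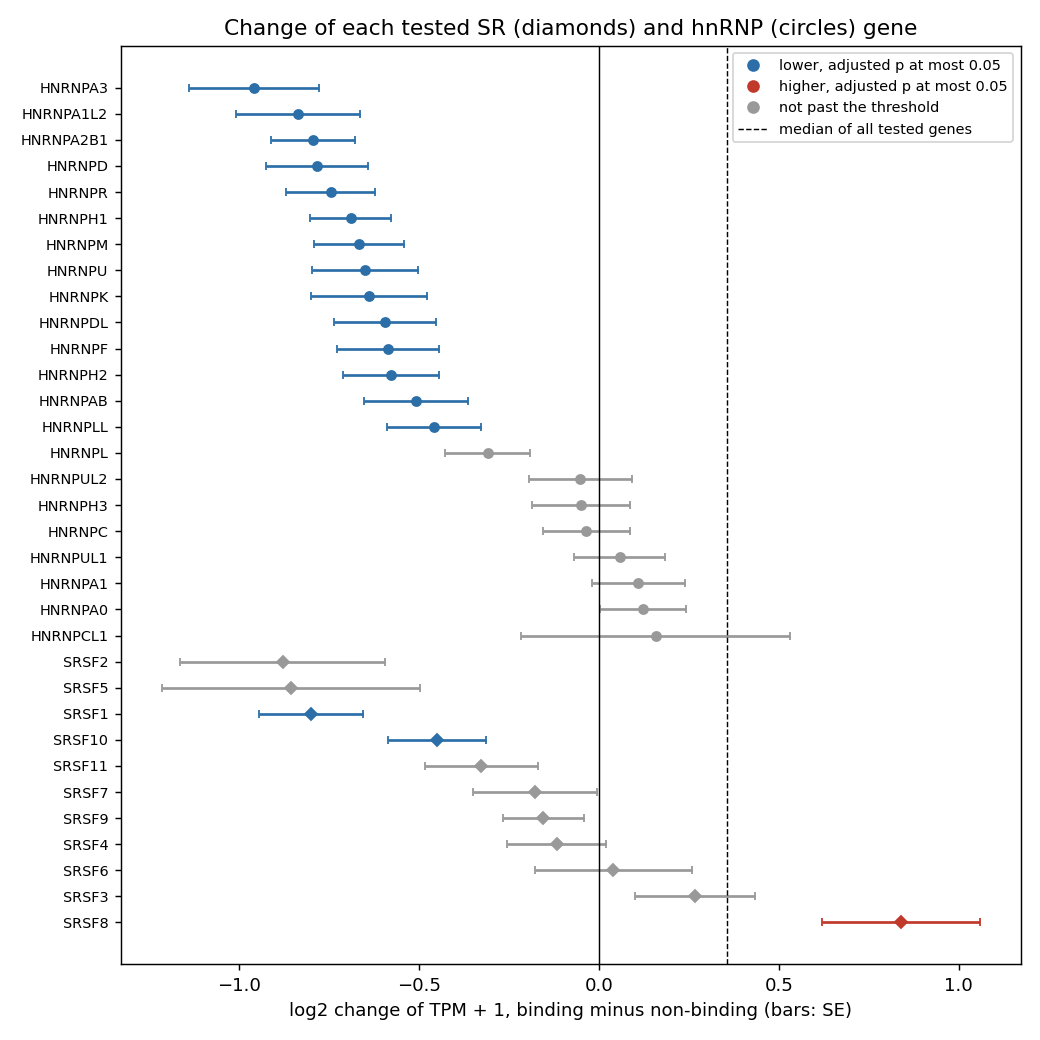
Log2 change of TPM + 1, binding minus non-binding (x axis), of each tested SR gene (diamonds) and hnRNP gene (circles), with SE bars from limma. Blue marks 16 members lower and red 1 member higher at an adjusted p of at most 0.05, grey the rest. The solid line is no change and the dashed line the median of all tested genes at 0.36, with SRSF8 the single point to its right.

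HNRNPA1 and HNRNPC are the classical core proteins of the hnRNP particle, and neither passed by its own TPM. HNRNPA1 (chromosome 12, 54280193 to 54287088, plus strand) had 1003, 814 and 812 TPM in binding replicates 1, 2 and 3 and 829, 760.3 and 836 TPM in non-binding replicates 1, 2 and 3. The groups overlapped, with a log2 change of 0.11 (SE 0.13; Benjamini-Hochberg adjusted p from limma = 0.525). HNRNPC (chromosome 14, 21209136 to 21269494, minus strand), which binds uridine runs and keeps Alu sequences from becoming exons, had 432, 372 and 363 TPM in binding replicates 1, 2 and 3 and 410.5, 379 and 403 TPM in non-binding replicates 1, 2 and 3. These overlapped too, with a log2 change of -0.03 (SE 0.12; Benjamini-Hochberg adjusted p from limma = 0.834). The retrogene HNRNPCL1 averaged 3.09 ± 1.55 against 2.53 ± 0.822 TPM (SD, n = 3 each; Benjamini-Hochberg adjusted p from limma = 0.76).

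These values are uncertain because the genome holds many near-identical copies of these genes. The table listed 127 pseudogenes named for a member, 75 of them for HNRNPA1, 16 for HNRNPA3 and 9 for HNRNPC. Of the 52 tested, 26 were lower in the binding cells and none higher, against 7.12% lower and 19.6% higher among all tested genes. At an unadjusted p under 0.05 there were 32, all with a change under 0, against 11.7% under and 33.0% above 0. Their median log2 change was -0.90. Among tested protein-coding genes 4.50% were lower and 23.4% higher, so the shares differ by gene class. Pseudogenes at large were not taken as a background. HNRNPA1P48 held 703, 949 and 906 TPM in binding and 1734, 1902 and 1808 TPM in non-binding replicates 1, 2 and 3. It exceeded HNRNPA1 itself in all libraries but binding replicate 1. All HNRNPA1 pseudogenes together came to 1715, 2379 and 2302 TPM in binding and 4247, 4789.8 and 4386 TPM in non-binding libraries. With their TPM added, HNRNPA1 averaged 3008 ± 254 against 5283 ± 243 TPM (SD, n = 3 each). The log2 change of this sum was -0.81 (SE 0.12; Benjamini-Hochberg adjusted p from limma = 0.012), opposite in sign to that of the gene alone. HNRNPC with its pseudogenes averaged 531 ± 8.56 against 646 ± 11.5 TPM (SD, n = 3 each), without overlap of the groups. That change of -0.28 on the log2 scale did not pass (Benjamini-Hochberg adjusted p from limma = 0.0733). For HNRNPA3 the sum gave a log2 change of -1.01 (Benjamini-Hochberg adjusted p from limma = 0.0151), close to that of the gene alone. How the submitters' software divided reads among copies was not stated in the labels or files. TPM are corrected for length, so a read counts for more on a short gene than on a long one. These sums are therefore not the TPM that a gene would have with the reads of its copies.

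**Figure D3:**
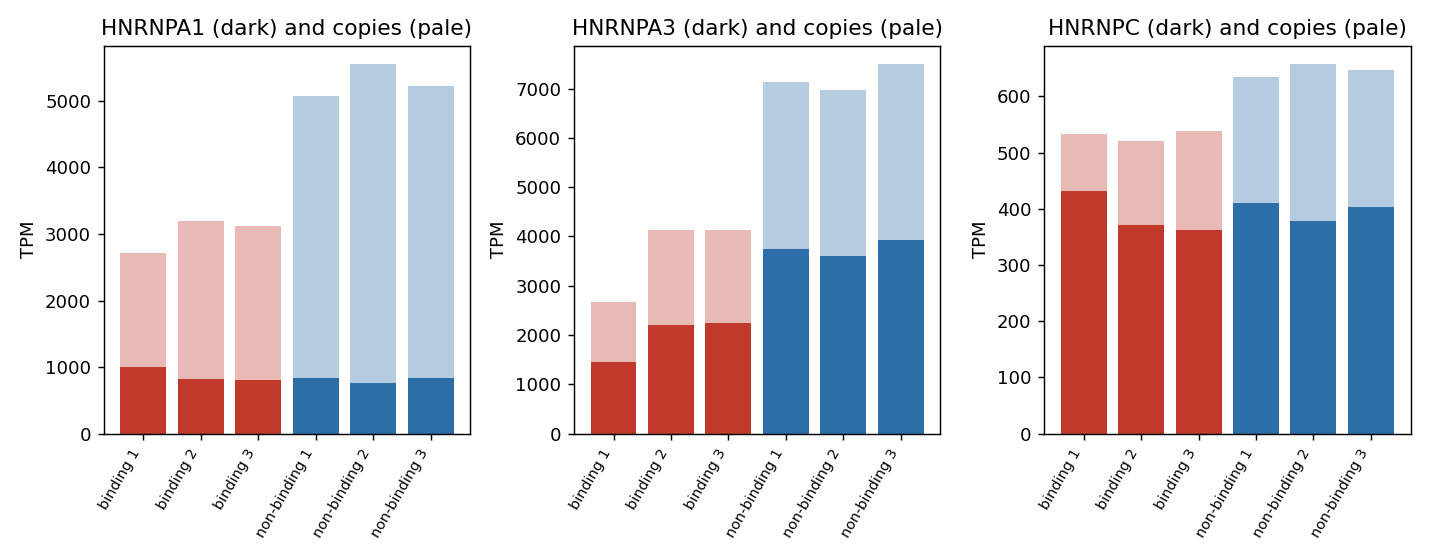
TPM (y axis, from 0) of HNRNPA1, HNRNPA3 and HNRNPC in each of the 6 libraries (x axis), with the gene's own TPM as the dark part of a bar and the sum of its named pseudogenes stacked in pale on top, red for binding and blue for non-binding. The dark part of HNRNPA1 is of like height in all libraries while the whole bar runs from 2718 to 3193 TPM in binding and from 5076 to 5550.1 TPM in non-binding libraries.

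How alike a gene and its copy can be is shown by aligned stretches of coding sequence from the GENCODE release 29 transcripts. HNRNPA3 is set beside HNRNPA3P6 (chromosome 3, 75214631 to 75215636, plus strand), and HNRNPC beside HNRNPCP2 (chromosome 2, 189923336 to 189924216, plus strand). Each stretch is 180 bases, the first of the longest alignment block without a gap, and capitals mark bases that differ within a pair.
HNRNPA3, coding bases 82 to 261: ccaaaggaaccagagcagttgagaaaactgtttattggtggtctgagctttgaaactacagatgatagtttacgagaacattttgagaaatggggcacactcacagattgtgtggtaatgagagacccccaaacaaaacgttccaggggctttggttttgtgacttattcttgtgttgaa
HNRNPA3P6, bases 1 to 180: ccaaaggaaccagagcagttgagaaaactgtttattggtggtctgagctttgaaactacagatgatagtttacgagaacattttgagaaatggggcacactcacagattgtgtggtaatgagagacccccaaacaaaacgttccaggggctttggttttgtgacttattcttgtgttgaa
HNRNPC, coding bases 356 to 535: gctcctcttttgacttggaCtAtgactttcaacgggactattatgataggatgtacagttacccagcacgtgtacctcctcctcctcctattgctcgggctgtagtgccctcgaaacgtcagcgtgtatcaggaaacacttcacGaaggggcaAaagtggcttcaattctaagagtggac
HNRNPCP2, bases 317 to 496: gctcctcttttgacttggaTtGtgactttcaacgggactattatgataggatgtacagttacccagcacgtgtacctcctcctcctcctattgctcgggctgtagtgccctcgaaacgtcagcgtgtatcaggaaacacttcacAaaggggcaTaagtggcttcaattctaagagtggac
The first pair did not differ, and the second differed at 4 of 180 bases. Over the whole alignment HNRNPA3 and HNRNPA3P6 were identical at 995 of 999 aligned coding bases, with a longest identical run of 519 bases, and HNRNPC and HNRNPCP2 at 865 of 875. The alignments had 1 and 3 gaps and covered part of coding sequences of 1134 bases for HNRNPA3 and 915 bases for HNRNPC. HNRNPA3P6 stood at 826 ± 192 against 1808 ± 125 TPM and HNRNPCP2 at 127 ± 33.2 against 221 ± 22.5 TPM (SD, n = 3 each). Both copies were lower (Benjamini-Hochberg adjusted p from limma = 0.0131 and 0.0271).

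Sharing with other genes ranged widely among members. For 1 coding transcript per member, every stretch of 50 bases was looked up in the GENCODE transcripts of all other genes. The share found elsewhere was 28.8% for HNRNPA1, 58.3% for HNRNPA3, 58.5% for HNRNPA1L2 and 27.6% for HNRNPC. For 12 members it was 0, and 5 of these were lower, HNRNPA2B1, HNRNPDL, HNRNPF, HNRNPLL and HNRNPM. Among the 23 tested members under 10% shared, 11 were lower and 1 higher, and among the 10 at 10% or more, 5 were lower and none higher. The shares over all tested genes were 7.12% lower and 19.6% higher, and over the abundant protein-coding genes 20.2% and 29.7%. SRSF1 shared 85.1% of its stretches, all with AC015813.2, an overlapping gene model on the same strand that was listed at 0 in every library. HNRNPUL2, HNRNPH2 and HNRNPL likewise shared most of their found stretches with an overlapping gene model on the same strand. The split at 10% thus mixes such overlaps with copies elsewhere in the genome. Several members also overlap a protein-coding gene on the opposite strand, among them HNRNPU with COX20, HNRNPAB with PHYKPL, HNRNPH3 with PBLD and RUFY2, HNRNPUL1 with TGFB1 and SRSF9 with GATC, and their reads are likewise uncertain.

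Member promoters were richer in GC than promoters at large, as a description. RefSeq promoters (GRCh38.p14, 250 bases before the RefSeq start) were found for 34 of 37 members, 48 in all, the others being HNRNPA1, HNRNPCL3 and SRSF2. Their median GC content was 64.8%, against 58.0% for all 35116 promoters. Motifs were searched on both strands and may overlap each other, and some windows of 1 gene overlap. The E-box CACGTG was in 7 of 48 member promoters (14.6%) and 6.34% of all. The CRE half-site TGACG was in 43.8% and 21.2%, the GC box GGGCGG in 56.2% and 42.6%, CCAAT in 47.9% and 32.01%, and TATAAA in 12.5% and 10.7%. The E-box promoters belonged to HNRNPA3, HNRNPD, HNRNPDL, HNRNPH2, HNRNPH3 and HNRNPM, of which HNRNPH3 alone did not pass in the expression test. The shares are descriptions and were not tested. The promoters of HNRNPD and HNRNPM, which were lower by a similar amount in the binding cells, are printed with the E-box in capitals.
HNRNPD, chr4:82373992-82374241, minus strand: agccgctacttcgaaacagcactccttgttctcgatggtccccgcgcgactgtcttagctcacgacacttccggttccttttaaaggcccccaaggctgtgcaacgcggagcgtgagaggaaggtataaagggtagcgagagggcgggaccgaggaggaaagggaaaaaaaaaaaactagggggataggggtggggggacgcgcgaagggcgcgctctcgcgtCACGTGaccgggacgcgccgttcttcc
HNRNPM, chr19:8444725-8444974, plus strand: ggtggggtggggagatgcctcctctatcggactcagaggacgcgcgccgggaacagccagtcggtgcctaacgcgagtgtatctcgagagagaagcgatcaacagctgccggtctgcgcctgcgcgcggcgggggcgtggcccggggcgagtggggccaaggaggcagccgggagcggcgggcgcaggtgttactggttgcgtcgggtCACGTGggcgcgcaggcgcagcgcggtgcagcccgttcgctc
In both, the E-box lies among the bases nearest to the RefSeq start. By GENCODE, HNRNPD spans 82352498 to 82374503 and HNRNPM 8444767 to 8489114. The printed HNRNPD stretch and most of the HNRNPM stretch, with both E-boxes, thus lie inside the GENCODE gene spans. In HNRNPD the E-box overlaps CGTCA, the reverse strand of the CRE half-site.

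Genes that act with the members were taken from 6 lists. Beside their counts stand 7.12% lower and 19.6% higher among all tested genes. Among the abundant protein-coding genes the shares were 20.2% and 29.7%. Among SR protein kinases, their phosphatase subunits and the importin of SR proteins, 4 of 12 tested were lower and none higher (6 at an unadjusted p under 0.05, all with a change under 0), with a median log2 change of -0.47. CLK2, a nuclear kinase that frees SR proteins from speckles, averaged 65.9 ± 3.68 against 104 ± 7.22 TPM, and the catalytic phosphatase subunits PPP1CC and PPP1CB averaged 179 ± 18.8 against 278 ± 7.91 TPM and 184 ± 18.9 against 266 ± 9.01 TPM (SD, n = 3 each). All 3 were lower, with log2 changes of -0.65, -0.64 and -0.54 (Benjamini-Hochberg adjusted p from limma = 0.0168, 0.017 and 0.0239). Of 29 TRA2 and SR-related genes, 4 were lower (13.8%) and 1 higher (3.45%). LUC7L3, a U1-associated protein, and PNN, a speckle protein, had log2 changes of -0.73 and -0.66 and SCAF1 of 0.76 (Benjamini-Hochberg adjusted p from limma = 0.014, 0.0156 and 0.0249).

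The hnRNP family genes with other names went both ways: 7 of 31 were lower and 5 higher. PCBP2, a poly(C)-binding relative of HNRNPK, averaged 733 ± 134 against 1319 ± 100.1 TPM, and TARDBP, which encodes TDP-43, 96.5 ± 12.1 against 158 ± 11.96 TPM (SD, n = 3 each). Both were lower (Benjamini-Hochberg adjusted p from limma = 0.0157 and 0.0175). RALY, a relative of HNRNPC, averaged 88.02 ± 11.5 against 52.6 ± 0.832 TPM (SD, n = 3 each) and was higher (Benjamini-Hochberg adjusted p from limma = 0.0164). Core spliceosome proteins were 9 higher (18.0%) and 7 lower (14.0%) of 50 tested, with a median log2 change of 0.19. Both shares were below those of the abundant protein-coding genes, 29.7% higher and 20.2% lower, although the list was not limited to 100 TPM. Among all tested genes 19.6% were higher and 7.12% lower. Against these, the list's share higher was slightly below and its share lower was above. SNRPD1, a subunit of the Sm ring, averaged 121 ± 6.34 against 182 ± 10.6 TPM, RBM17, a 3' splice site factor, 62.5 ± 2.38 against 97.1 ± 8.87 TPM, and DHX15, a helicase that takes spliceosomes apart, 191 ± 40.2 against 319 ± 31.1 TPM (SD, n = 3 each). These 3, named for the smallest p, were lower (Benjamini-Hochberg adjusted p from limma = 0.0189, 0.0193 and 0.0247), although more genes of the list were higher than lower. 

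Tissue-restricted splicing regulators were 4 lower and 2 higher of 24 tested. TIAL1 and RBM39, which are in fact broadly expressed, had log2 changes of -0.72 and -0.60, and RBM24, which is best known from muscle, rose from 9.46 ± 2.08 to 22.2 ± 5.82 TPM (SD, n = 3 each; Benjamini-Hochberg adjusted p from limma = 0.0156, 0.0193 and 0.0193). Of 18 genes of nonsense-mediated decay and the exon junction complex, which remove the self-limiting transcript forms of SR and hnRNP genes, 2 were higher and 1 lower, with a median log2 change of 0.29. UPF2 was lower at 40.9 ± 1.14 against 62.8 ± 7.45 TPM, and EIF4A3 and CASC3 of the exon junction complex were higher at 97.1 ± 16.8 against 62.7 ± 5.43 TPM and 36.9 ± 5.20 against 23.7 ± 2.21 TPM (SD, n = 3 each; Benjamini-Hochberg adjusted p from limma = 0.0247, 0.0304 and 0.0316). With either non-binding replicate 2 or 3 left out, no gene of the 6 lists passed.

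The counts of all 6 lists moved with the scaling, given here first for the common median and then for TPM rescaled without mitochondrial transcripts. Core spliceosome proteins were 15 lower and none higher, then 5 lower and 16 higher. The hnRNP family genes with other names were 12 lower and 1 higher, then 4 lower and 9 higher. TRA2 and SR-related genes were 12 lower and none higher, then 3 lower and 3 higher. Tissue-restricted regulators were 8 lower and 1 higher, then 3 lower and 3 higher. The kinase, phosphatase and importin list was 7 lower, then 3 lower, with none higher on either scale. Decay and exon junction genes were 1 lower on both scales, with none and then 3 higher. The balance of lower and higher genes turned on 1 of these scales in the core list, the list of other hnRNP names and the decay list, and became even in the SR-related and tissue-restricted lists without mitochondrial transcripts.

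**Figure D4:**
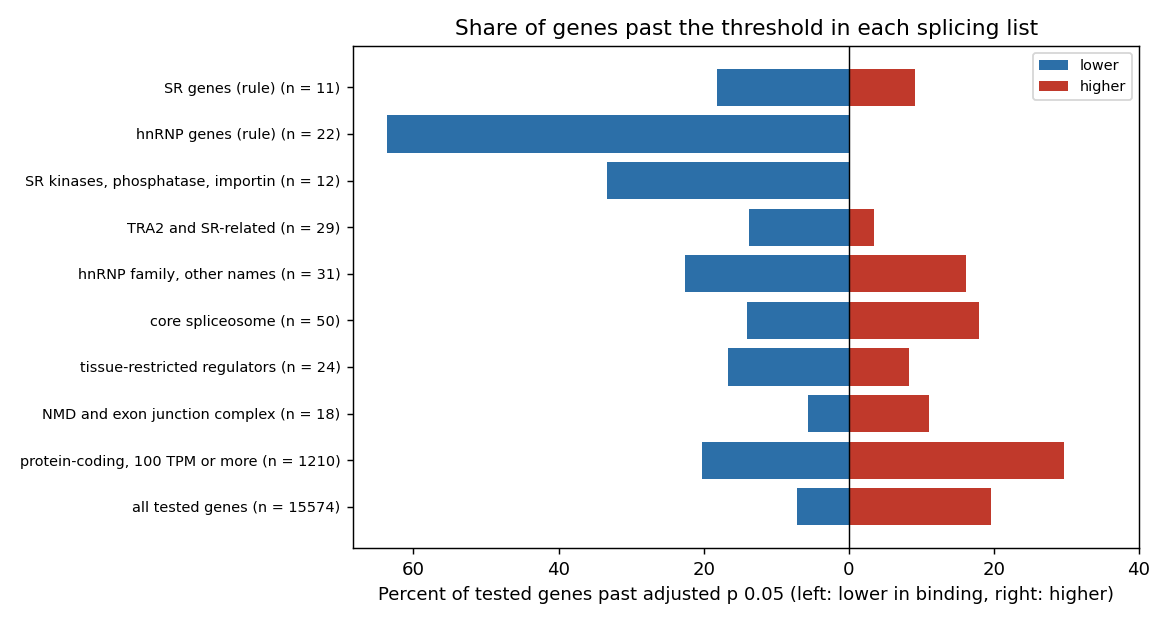
Percent of tested genes (x axis) that were lower (left, blue) or higher (right, red) in the binding cells at an adjusted p of at most 0.05, for the members, 6 lists of related genes and 2 backgrounds, with the number tested beside each name. The bar of the hnRNP genes reaches 63.6% lower with no higher part, against 20.2% lower and 29.7% higher for abundant protein-coding genes.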

How the data were processed

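The submitters sequenced total RNA of sorted MDA-MB-231 cells with ribosomal RNA removed, using random primers, per the labels' protocols. The authors deposited TPM for 58051 genes, 1 column per library, each summing to 1000000. Submitters' processing notes name hg38 as build. Aligner, quantification tool, annotation and strand setting were not given in the sources used here. Division of reads among near-identical genes can move these TPM. Depth is unknown, so no interval was computed.

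Groups and columns came from the labels, 3 libraries each. The 15574 genes reaching 1 TPM in 3 or more libraries entered a limma fit (version 3.58.1, R 4.3.3) of log2(TPM + 1) on group alone. Its variance prior followed the mean level, and p-values were adjusted by Benjamini-Hochberg with a threshold of 0.05. Fold changes on this scale understate low genes. The fit was tested on simulated data. A gene that did not pass was not shown to be unchanged. Gene types and hg38 positions came from GENCODE release 29, which may not be the submitters' annotation. Alignments used Biopython 1.88.

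The members and lists were chosen with earlier results of these data known. Library values are given for SRSF1, SRSF2, SRSF3, HNRNPA1, HNRNPC, HNRNPK and HNRNPU whatever they showed, and for the 4 SR and 8 hnRNP genes with the smallest p. From each list of related genes the 3 with the smallest p are named. SRSF5 was added after its values were seen. Alternatives were a pseudocount of 0.1, no filter, a filter of 5 TPM, a common median, quantile normalization, rescaling without mitochondrial transcripts, a replicate block, no intensity trend, pseudogene TPM added to their gene, and each library left out.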

Additional observations from a re-analysis of the deposited data

How the results depend on the processing

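Counts of called members, against 14 hnRNP genes lower, none higher, and 2 SR genes lower and 1 higher, moved as follows. No hnRNP gene was higher under any alternative. Among all genes 1.86% were lower and 5.12% higher without a filter, and 3.64% and 12.8% with no intensity trend. Without a filter 9 hnRNP genes and 1 SR gene were lower and 0 SR genes higher. With no intensity trend the counts lower were 7 and 1. With the common median 15 and 5 were lower, and 0 SR genes were higher, as with quantile normalization, where 10 and 3 were lower. Without mitochondrial transcripts 12 and 1 were lower. When 1 library was left out, hnRNP genes lower ranged from 0 (without non-binding replicate 3) to 14, SR genes lower from 0 to 3 and SR genes higher from 0 to 1. With the replicate number as a block 13 hnRNP genes and 1 SR gene were lower, the calls of HNRNPAB and SRSF10 being lost. Same-numbered libraries had correlations of deviations from the group means of 0.035, -0.017 and 0.028, and other pairs ran from -0.074 to 0.062. With 3 libraries per group, such correlations cannot tell whether the numbers pair the libraries. The block stands only as an alternative.

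Summed TPM of hnRNP genes was 14934 in binding and 24948 in non-binding libraries with pseudogenes added, and 12084 in binding and 17021 in non-binding libraries without mitochondrial transcripts, against 10814 and 16486. Log2 changes that turned sign all belonged to members that had not passed. With the common median they were HNRNPCL1 -0.16, HNRNPA0 -0.20, SRSF3 -0.052, HNRNPA1 -0.21, SRSF6 -0.28 and HNRNPUL1 -0.26. With quantile normalization they were HNRNPCL1 -0.039, HNRNPC 0.061 and SRSF6 -0.0065. Without mitochondrial transcripts they were HNRNPUL2 0.059, HNRNPH3 0.063 and HNRNPC 0.078. HNRNPA1 with pseudogenes added was -0.81 and passed. With 1 library left out, ranges that crossed 0 were -0.071 to 0.52 for HNRNPCL1, -0.11 to 0.0046 for HNRNPUL2, -0.15 to 0.025 for HNRNPH3, -0.11 to 0.013 for HNRNPC, -0.018 to 0.12 for HNRNPUL1 and -0.17 to 0.20 for SRSF6. The cause was not tested. TPM keep no depth, so what depth limits cannot be stated.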
